A study of Mus musculus with 4 samples.

Results

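Among the smooth muscle cells of the mouse aortic root, 215 cells carried at least 4 unique molecular identifiers (UMIs, each standing for 1 captured transcript) of Lum and Dcn summed. They came from the Root library, which holds 4040 barcodes of the 29930 in the series. Muscle barcodes were those with at least 1000 detected genes, at most 10% of UMIs from mitochondrial genes, at least 10 UMIs of Myh11 and at most 5 UMIs of the macrophage genes C1qa, C1qb and Lyz2 together. Of the 2742 root barcodes that met this, the 215 Lum/Dcn-high cells were 7.84% (exact binomial 95% interval 6.86 to 8.91%). They were set against the 2181 root muscle cells with no UMI of either gene, called Lum/Dcn-zero cells here, while 346 cells with 1 to 3 UMIs lay between them. The cells were selected on their measured Lum and Dcn UMIs, so the levels of these genes are a description, and every other gene was read from the same cells without a test.

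The libraries were made from mice 12 weeks old that carried Wnt1-Cre2, a recombinase active in the neural crest, and the mT/mG reporter, which makes membrane eGFP in recombined cells and their descendants and membrane tdTomato in all others. Viable single cells positive for ITGA8, a surface integrin of smooth muscle, were sorted from the aortic root, with no colour given in the title (Root), from the ascending aorta by colour (RFP cells in Asc-RFP, GFP cells in Asc-GFP) and from the aortic arch (GFP cells in Arch-GFP). Each group was 1 library, with 41479646 UMIs in Root, 57063251 in Asc-RFP, 87500240 in Asc-GFP and 104691850 in Arch-GFP, and the labels do not say how many animals went into it. There is therefore no replicate check of any value below, all intervals are at 95% and cover counting error only, and no p-value was computed. Root shared 17 cell barcodes with Asc-GFP, 9 with Asc-RFP and 13 with Arch-GFP, and 2 of the Lum/Dcn-high barcodes were among those shared with Arch-GFP.

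Lumican (Lum) and decorin (Dcn) are small leucine-rich proteoglycans, secreted proteins that bind collagen fibrils and limit their thickness, and decorin also binds TGF-beta. In arteries both are made most by adventitial fibroblasts, and they are among the genes that rise when smooth muscle cells leave the contractile state. The aortic root is the segment where neural crest descendants lie beside muscle of second heart field descent, and where valve leaflets and adventitia join the wall.

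Per cell, the summed count had a lowest value of 4, a median of 9 and a highest value of 143 UMIs in Lum/Dcn-high cells. Lum ranged over 0, 2 and 71 UMIs (lowest, median, highest), and Dcn over 0, 6 and 90 UMIs. Both genes were counted in 119 cells (55.3%), Dcn alone in 85 (39.5%) and Lum alone in 11 (5.12%). Dcn had more UMIs than Lum in 176 cells and fewer in 35. The high counts were unevenly spread: 56 cells had 20 or more UMIs, and the 20 highest cells held 38.5% of the 3625 Lum and Dcn UMIs of the Lum/Dcn-high cells. At the threshold, 39 cells had exactly 4 UMIs and 46 cells, just outside it, had exactly 3. The Lum/Dcn-high cells held 87.3% of the Lum and Dcn UMIs of all root muscle cells, while 213 cells outside them had 1 UMI and 87 had 2. Summed over cells and scaled to 1000000 UMIs (CPM), the level of Lum was 349 CPM and that of Dcn 792 CPM in Lum/Dcn-high cells. Both genes lie on the plus strand of chromosome 10 in mm10, Dcn at 97479609 to 97518143 and Lum at 97565128 to 97572703, and are protein-coding in GENCODE M21. Keratocan (Kera, 97606879 to 97613692) and epiphycan (Epyc, 97644068 to 97682454), further leucine-rich proteoglycans on the same strand beyond Lum, had no UMI in either group, where 3 counts would be 0.944 CPM in Lum/Dcn-high and 0.101 CPM in Lum/Dcn-zero cells.

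**Figure D1:**
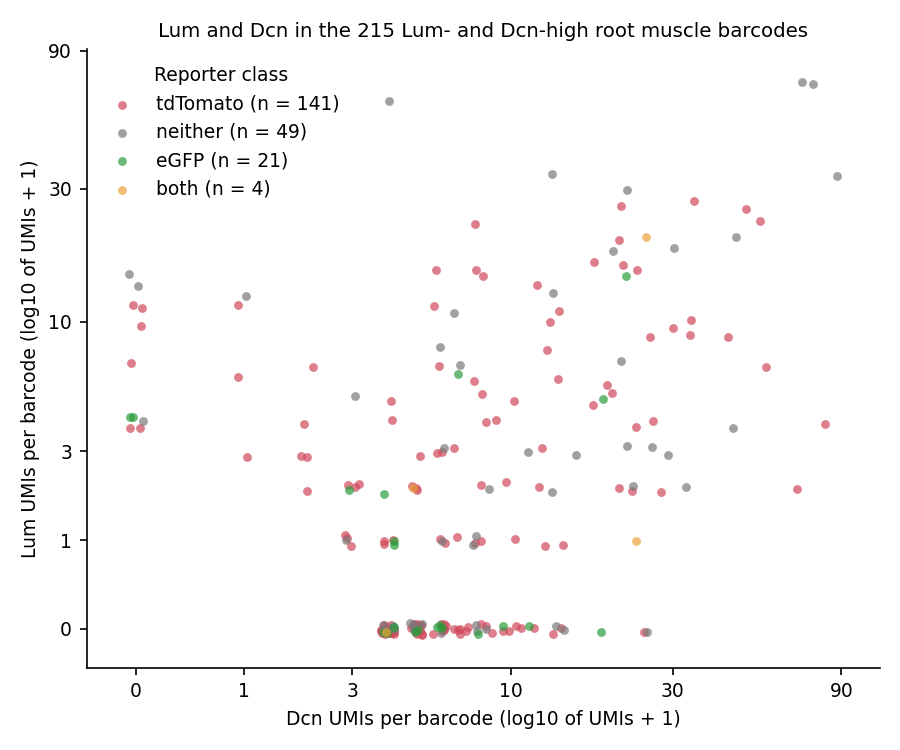
Dcn UMIs (x axis) and Lum UMIs (y axis) in each of the 215 Lum/Dcn-high root cells, on axes of log10 of UMIs + 1 with a little jitter, coloured by reporter class. A row of Dcn-only cells runs along the bottom, a short column of 11 Lum-only cells stands at the left, and the cells with the most of both are mainly of the neither and tdTomato classes.

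Most contractile genes were slightly lower in these cells and remained abundant, though Acta2 was not lower in eGFP cells alone. Acta2, the smooth muscle actin, had 36, 197 and 988 UMIs per cell (lowest, median, highest) in Lum/Dcn-high cells, against 5, 246 and 1045 UMIs in Lum/Dcn-zero cells. Myh11, the smooth muscle myosin heavy chain, had 11, 51 and 168 UMIs in Lum/Dcn-high cells, against 10, 63 and 460 in Lum/Dcn-zero cells, with the lower end set by the rule. The ranges of both genes overlapped, and the highest Myh11 counts were in Lum/Dcn-zero cells. As summed levels, Acta2 stood at 16204 CPM in Lum/Dcn-high cells and 19713 CPM in Lum/Dcn-zero cells, a log2 ratio of -0.28 (-0.30 to -0.27). Myh11 had a log2 ratio of -0.42 (-0.44 to -0.39), Mylk, the kinase of myosin light chain, one of -0.40, Cnn1, calponin, one of -0.27 and Tagln, an actin-binding protein, one of -0.26. Of 24 contractile genes measured, 23 lay within 0.5 of 0 on the log2 scale, and their median was -0.28. Des, desmin, was the exception, at 365 CPM in Lum/Dcn-high cells and 208 CPM in Lum/Dcn-zero cells. Itga8, the sorting antigen, had a log2 ratio of -0.21, and one of 0.31 in eGFP cells alone. Against the 9913 genes with at least 5 CPM in either group, 7.36% were at least 0.5 higher on the log2 scale and 4.04% at least 0.5 lower, with a median of 0.03; the counts of list members below use this same bound. Lum/Dcn-high cells were slightly deeper, with a median of 14276 UMIs and 3774 genes, against 13379 UMIs and 3613 genes in Lum/Dcn-zero cells, and had a lower median mitochondrial share, 3.91% against 5.07%.

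Serpinf1, Col8a1, Thbs1 and Cp were taken as markers of these cells with earlier results of these data known, so their levels are a description. Of these 4 markers, 3 were at least 2-fold higher, as were 1.44% of the 5902 genes with at least 20 CPM in either group. Cp, ceruloplasmin, a copper-carrying ferroxidase, had 257 CPM in Lum/Dcn-high cells and 61.8 CPM in Lum/Dcn-zero cells, a log2 ratio of 2.05 (1.93 to 2.17). Serpinf1, which encodes the antiangiogenic protein PEDF, had 74.3 CPM in Lum/Dcn-high cells and 15.2 CPM in Lum/Dcn-zero cells, with a log2 ratio of 2.29 (2.06 to 2.52). Col8a1, a short-chain collagen of vascular walls, had 64.5 CPM in Lum/Dcn-high cells and 21.3 CPM in Lum/Dcn-zero cells. Thbs1, thrombospondin 1, stood at 35.3 CPM in Lum/Dcn-high cells and 25.8 CPM in Lum/Dcn-zero cells, and 49.1% of its UMIs in the Lum/Dcn-high cells came from 5 of them. All 4 markers were counted together in 13 Lum/Dcn-high cells (6.05%) and 9 Lum/Dcn-zero cells (0.413%), and none of them in 18.6% of Lum/Dcn-high cells and 49.3% of Lum/Dcn-zero cells.

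Over all genes with at least 20 CPM in either group, and leaving out Lum and Dcn, 85 of 5902 (1.44%) were at least 2-fold higher in Lum/Dcn-high cells and 13 (0.22%) at least 2-fold lower. The count moved with the threshold on Lum and Dcn, with 54 genes higher at 2 or more UMIs and 143 at 8 or more. Of the 85 genes, 83 had UMIs in at least 10% of the Lum/Dcn-high cells, and 9 took over 50% of their UMIs from 5 cells. The gene ranked first was Fxyd6, a small regulator of the sodium pump, with 34.6 CPM in Lum/Dcn-high cells and 0.876 CPM in Lum/Dcn-zero cells, a log2 ratio of 5.31 (4.68 to 5.98). It was counted in 25.1% of Lum/Dcn-high cells, 1.15% of Lum/Dcn-zero cells and 2.02% of 99 macrophage barcodes, whose median depth was 8440 UMIs. Fbln1, fibulin 1, a glycoprotein of elastic fibres and basement membranes, had 90.7 CPM in Lum/Dcn-high cells and 4.24 CPM in Lum/Dcn-zero cells, a log2 ratio of 4.42 (4.11 to 4.73). Fbln1 was counted in 43.3%, 4.31% and 9.09% of the same 3 classes. After thinning each cell to 5000 UMIs, which left out 67 Lum/Dcn-zero and 34 macrophage barcodes, Fbln1 was counted in 26.5% of Lum/Dcn-high cells and 1.75% of Lum/Dcn-zero cells, and in no macrophage barcode.

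Several of the genes ranked highest encode secreted signals. Igf1, insulin-like growth factor 1, had 38.4 CPM in Lum/Dcn-high cells and 1.55 CPM in Lum/Dcn-zero cells. Macrophage barcodes of the same library held 224 CPM of Igf1, and their part in the difference was not tested. The summed level of 8 macrophage markers was 8.81 CPM in Lum/Dcn-high cells and 14.4 CPM in Lum/Dcn-zero cells. These markers include C1qa, C1qb and Lyz2, which the rule held to at most 5 UMIs together in both groups, so the filter limits this sum. Fst, follistatin, which binds and blocks activins, had 81.8 CPM in Lum/Dcn-high cells and 3.27 CPM in Lum/Dcn-zero cells, with 68.8% of its UMIs in the Lum/Dcn-high cells from 5 cells. Penk, the precursor of enkephalin peptides, had log2 ratio 3.41 and Ptn, the heparin-binding growth factor pleiotrophin, 3.24. Ccl19, a chemokine whose symbol is shared by more than 1 feature and whose counts are uncertain for that reason, had 2.83.

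The other genes ranked highest were enzymes, matrix proteins and proteins of the cell. Gpx3, a secreted glutathione peroxidase, had 26.4 CPM in Lum/Dcn-high cells and 1.15 CPM in Lum/Dcn-zero cells. It was counted in 23 Lum/Dcn-high cells, and 5 of those held 54.8% of its UMIs. Aldh1a1, which makes retinoic acid, had a log2 ratio of 3.98. Comp, a cartilage-type thrombospondin that binds collagen, had 61.1 CPM in Lum/Dcn-high cells and 9.26 CPM in Lum/Dcn-zero cells. It was counted in 29 Lum/Dcn-high cells, and 5 of those held 44.3% of its UMIs. Mmp3, the matrix protease stromelysin 1, had a log2 ratio of 2.39, but was counted in only 14 Lum/Dcn-high cells, and 5 of those held 86.4% of its UMIs. Lmo7, a protein of cell junctions, had a log2 ratio of 2.89, Bicc1, an RNA-binding protein, 2.90 and Emp1, a membrane protein, 2.43. Of the Emp1 UMIs in Lum/Dcn-high cells, 57.8% came from 5 cells.

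In the other direction, Crip1, a small LIM-domain protein, had 1002 CPM in Lum/Dcn-high cells and 2353 CPM in Lum/Dcn-zero cells, a log2 ratio of -1.23 (-1.28 to -1.18). Acan, the cartilage proteoglycan aggrecan, had 12.3 CPM in Lum/Dcn-high cells and 40.9 CPM in Lum/Dcn-zero cells, a log2 ratio of -1.73 (-2.23 to -1.28). Comp and Acan, both cartilage-type genes, thus lay on opposite sides. Npy1r, a receptor for neuropeptide Y, had 105 CPM in Lum/Dcn-high cells and 260 CPM in Lum/Dcn-zero cells. Notch3, the Notch receptor of arterial muscle, had a log2 ratio of -1.03, Epas1, a hypoxia-responsive transcription factor, -1.03, Timp4, an inhibitor of matrix proteases, -1.62 and Itga4, an integrin subunit, -1.76. Tes, a focal adhesion protein, had -1.34, Tppp3, a tubulin-binding protein, -1.11, Tesc, a calcium-binding protein, -1.12, Serpini1, neuroserpin, -0.98, Scube3, a secreted signal peptide protein, -0.96 and Bcam, a laminin receptor, -0.73. The noncoding gene Gm29686 had -1.32, and the reporter eGFP, described below, -0.95.

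**Figure D2:**
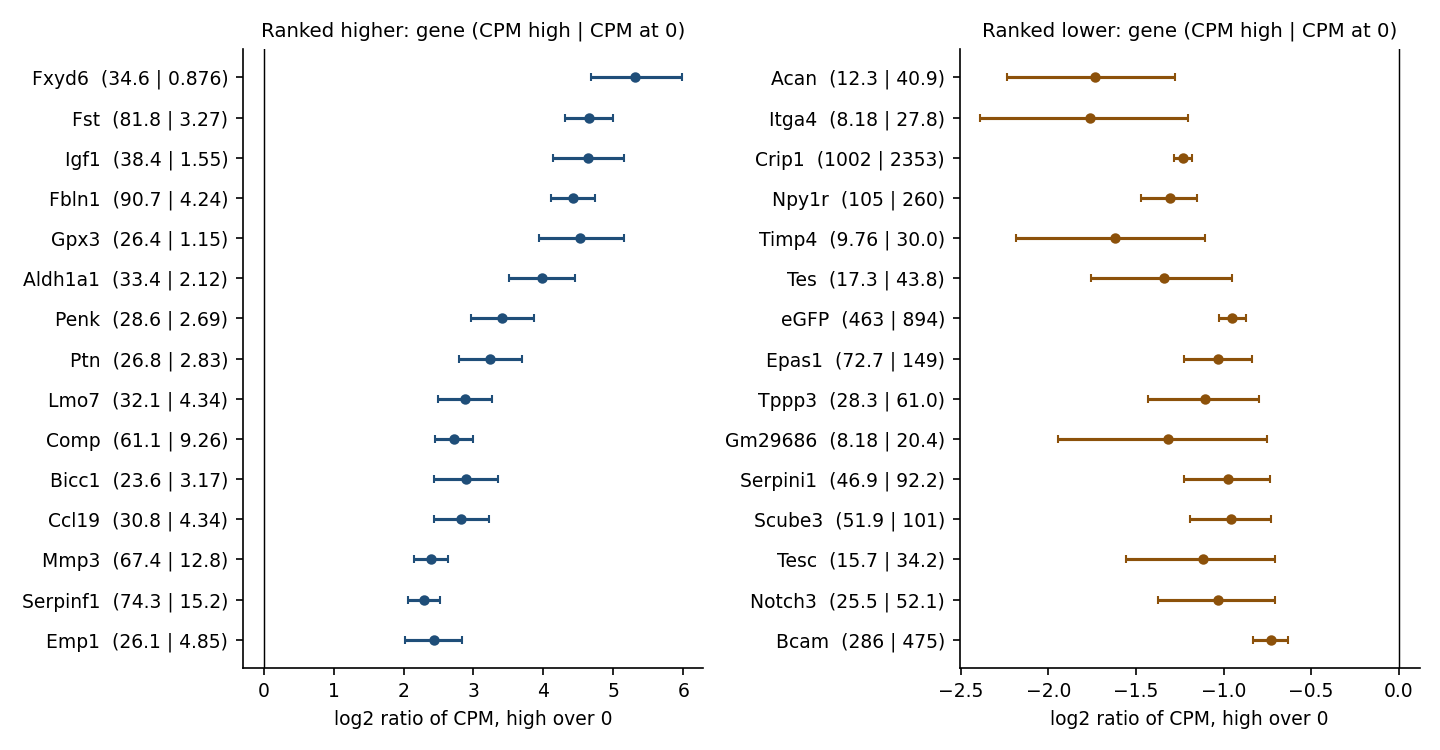
The 15 genes ranked highest (left) and lowest (right) by the bound of the interval nearest 0, with the log2 ratio of Lum/Dcn-high over Lum/Dcn-zero root cells on the x axis and 95% counting intervals. The CPM of Lum/Dcn-high cells and then that of Lum/Dcn-zero cells follow each gene name, and the ratios on the left are larger in size than those on the right.

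Fibroblast genes were higher in part. Of 14 fibroblast genes measured beside Lum and Dcn, 8 were higher, 0 lower and 6 within the bound, with a median log2 ratio of 0.96. That median was 0.71 in tdTomato cells alone and 0.54 in eGFP cells alone. With the 2% highest cells left out for each gene it was 0.69. Cd34, a surface sialomucin of adventitial and progenitor cells, had 84.4 CPM in Lum/Dcn-high cells and 29.0 CPM in Lum/Dcn-zero cells. Tcf21, a transcription factor of the fibroblast lineage, had 16.4 CPM in Lum/Dcn-high cells and 3.54 CPM in Lum/Dcn-zero cells. Cygb, cytoglobin, had 27 UMIs in 8 Lum/Dcn-high cells and 3 UMIs in the Lum/Dcn-zero cells. Pdgfra, the receptor that defines most fibroblasts, stood at 12.9 CPM in Lum/Dcn-high cells and 7.31 CPM in Lum/Dcn-zero cells, with 41 UMIs behind the first value. Genes that define adventitial fibroblasts were near absent: Pi16, Scara5 and Clec3b had 1 UMI each over all 215 Lum/Dcn-high cells, against 5, 0 and 6 over the 2181 Lum/Dcn-zero cells, and Dpt and Dpep1 had 3 each, against 0. The main fibrillar collagens differed less, with a log2 ratio of 0.37 for Col1a1, 0.21 for Col1a2 and 0.43 for Col3a1.

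Other genes of the extracellular matrix varied by family. Of 8 further small leucine-rich proteoglycans measured, 3 were higher and 5 within the bound, with a median log2 ratio of 0.11. Prelp had 505 CPM in Lum/Dcn-high cells and 344 CPM in Lum/Dcn-zero cells, and Omd, osteomodulin, 104 CPM in Lum/Dcn-high cells and 68.0 CPM in Lum/Dcn-zero cells. Fmod, fibromodulin, the third, rested on 18 UMIs in 5 Lum/Dcn-high cells and 11 UMIs in Lum/Dcn-zero cells. Bgn, biglycan, and Ogn, osteoglycin, had log2 ratios of 0.14 and 0.08. Of 17 collagen genes, 2 were higher and 3 lower, with Col14a1, a fibril-associated collagen, at 0.72 and Col18a1 and Col15a1, collagens of basement membranes, at -0.66 and -0.60. Of 18 elastic fibre genes, 6 were higher and 0 lower, Fbln1 first among them. Mfap5, a microfibril glycoprotein, had 340 CPM in Lum/Dcn-high cells and 159 CPM in Lum/Dcn-zero cells, Ltbp2, a microfibril-bound protein, had a log2 ratio of 1.51, and Eln, elastin, one of -0.00.

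Secreted enzymes, inhibitors and complement genes stood higher more often. Of 10 chemokine, complement and inflammation genes measured, 8 were higher and 0 lower, with a median log2 ratio of 1.22. Within 1 reporter class the median was smaller, 0.83 in tdTomato cells alone and -0.031 in eGFP cells alone. Cxcl12, a chemokine of stromal cells, had 191 CPM in Lum/Dcn-high cells and 65.8 CPM in Lum/Dcn-zero cells. C3, the central complement component, had 19 UMIs, all in 5 Lum/Dcn-high cells, and none in the Lum/Dcn-zero cells. C4b had a log2 ratio of 1.98, with 70.1% of its UMIs in the Lum/Dcn-high cells from 5 of them. Of 11 serpin and clotting genes, 6 were higher and 0 lower. Serpina3n, an acute-phase protease inhibitor, had 15.4 CPM in Lum/Dcn-high cells and 0.977 CPM in Lum/Dcn-zero cells. Of 17 matrix proteases and inhibitors, 8 were higher and 3 lower, with Mmp2, a gelatinase, at a log2 ratio of 1.98 and Adamts5, an aggrecan- and versican-cleaving protease, at 0.93. Apoe, the lipid carrier apolipoprotein E, had 1623 CPM in Lum/Dcn-high cells, 433 CPM in Lum/Dcn-zero cells and 16126 CPM in macrophage barcodes.

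Wnt and heart-field genes also stood higher. Of 14 Wnt pathway genes, 8 were higher and 0 lower, with a median log2 ratio of 0.59. Frzb, a secreted Wnt antagonist, had 56.3 CPM in Lum/Dcn-high cells and 11.9 CPM in Lum/Dcn-zero cells, while the ligand Wnt5a had a log2 ratio of 1.90. Of 15 heart and second heart field genes, 7 were higher and 1 lower. Isl1, a transcription factor of the second heart field, had 20.8 CPM in Lum/Dcn-high cells and 3.84 CPM in Lum/Dcn-zero cells. Tnnt2, cardiac troponin T, had 1644 CPM in Lum/Dcn-high cells and 790 CPM in Lum/Dcn-zero cells. Psd, an exchange factor for ARF6, had 167 CPM in Lum/Dcn-high cells and 47.7 CPM in Lum/Dcn-zero cells. Corin, the protease that activates natriuretic peptides, stood at 63.9 CPM in Lum/Dcn-high cells and 51.4 CPM in Lum/Dcn-zero cells. The summed level of 8 cardiomyocyte markers was 82.8 CPM in Lum/Dcn-high cells and 86.3 CPM in Lum/Dcn-zero cells, and the atrial markers Myl7 and Nppa had no UMI in Lum/Dcn-high cells.

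Lists of other pathways gave the following counts. Of 23 TGF-beta genes, 2 were higher and 2 lower, with a median log2 ratio of 0.06, and Tgfb3, a TGF-beta ligand, was among the lower ones at -0.59. Of 11 BMP genes, 2 were higher, Bmp4, a BMP ligand, at 1.78 among them, and 1 was lower. Of 7 Notch genes, 0 were higher and Notch3 was the 1 lower. Of 15 ion channel genes, 0 were higher and 3 lower, among them the potassium channel gene Kcnk3 and the calcium channel gene Cacna1c. Of 18 immediate-early genes, 2 were higher and 2 lower, with a median of -0.01, and of 13 stress and heat shock genes, 0 were higher and 1 was lower. Of 14 IGF, FGF and PDGF genes (ligands, receptors and binding proteins), 1 was higher, Igf1, and 3 were lower, Igfbp2, Fgf1 and Fgfr2. Of 19 genes of heritable aortic disease, 0 were higher and 1 was lower, Tgfb3. Of 14 genes of modulated smooth muscle measured beside Lum and Dcn, 6 were higher and 0 lower.

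The remaining lists differed in how many genes passed the bound. Of 13 contractile regulators, 1 was higher, Rgs5, with 54.2% of its UMIs in the Lum/Dcn-high cells from 5 of them, and 1 was lower, Ppp1r14a. Of the 11 integrin genes in the list, which does not hold Itga4, 0 were higher and 1 was lower, Itga3. Of 16 matricellular genes, 2 were higher, Comp and Smoc1, a calcium-binding matrix protein, and 1 was lower, Sparcl1. Of 11 other proteoglycan and hyaluronan genes, 3 were higher, with Gpc3, a glypican, at a log2 ratio of 1.17 and Vcan, versican, at 0.84, and 2 were lower. Of 11 iron and copper genes, 5 were higher, Cp and the metallothioneins Mt1 and Mt2 among them, and 1 was lower. Of 10 lipid genes, 3 were higher and 1 was lower. Of 8 neural crest factors, 2 were higher, Sox9 and Twist2, and 0 lower. Of 6 vasoactive receptor and natriuretic genes, 1 was higher, Ednra, an endothelin receptor. Of the cell cycle genes, 1 was measured, Pcna, at -0.12, and Mki67, a marker of dividing cells, had no UMI in Lum/Dcn-high cells.

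Most of the genes ranked above followed the Lum and Dcn count. Across cells with 0, 1 to 3, 4 to 9 and 10 or more UMIs of these genes, 14 of the 15 genes ranked highest were higher in each further class, Mmp3 being the exception, and 12 of the 15 ranked lowest were lower in each, all but Itga4, Epas1 and Notch3. The ranking had itself set cells with 4 or more Lum and Dcn UMIs against cells with 0, so part of this order was fixed beforehand. The share of all genes in such an order was not computed. In the same classes (2181, 346, 119 and 96 cells), the level of Fbln1 was 4.24, 14.9, 32.8 and 158 CPM. Apoe followed the same order with 433, 597, 978 and 2370 CPM, and Cp with 61.8, 90.4, 164 and 363 CPM. Tnnt2 stood at 790, 881, 1059 and 2322 CPM. The contractile genes ran the other way, with Myh11 at 5249, 5207, 4554 and 3208 CPM and Acta2 at 19713, 18364, 17815 and 14338 CPM. Desmin did not follow either order: its levels were 208, 306, 412 and 310 CPM, highest in the third class. The median depths of the classes were 13379, 13731.5, 13485 and 14662 UMIs.

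**Figure D3:**
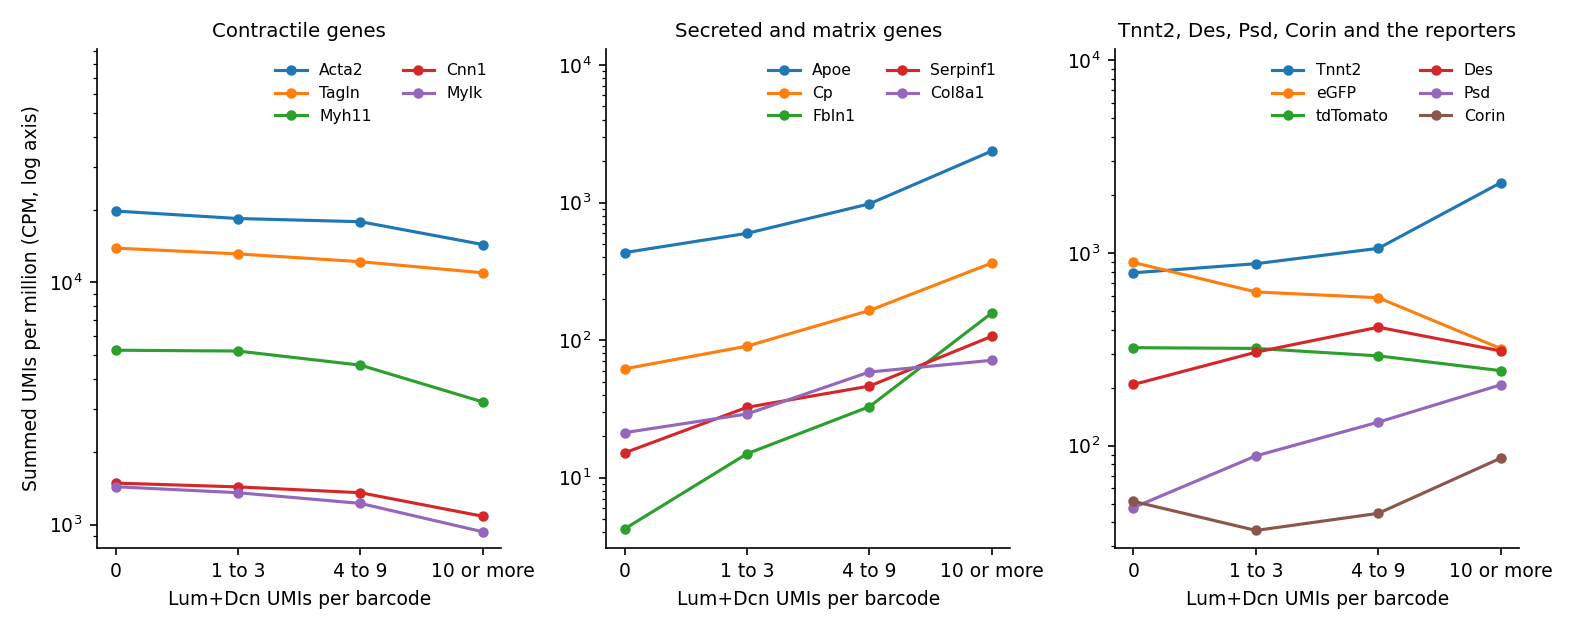
Summed level (CPM, log axis) of 5 contractile genes (left), 5 secreted and matrix genes (middle) and Tnnt2, Des, Psd, Corin and the reporters (right) in root muscle cells with 0, 1 to 3, 4 to 9 and 10 or more Lum and Dcn UMIs. Secreted genes are higher in each further class, with Fbln1 at 4.24 CPM in the first and 158 CPM in the last, while Acta2, Myh11 and eGFP are lower in each.

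Lum and Dcn did not mark the same cells equally. Lum/Dcn-high cells with a Lum UMI had 1014 CPM of Dcn, those without had 452 CPM. Cells with a Lum UMI held more of the secreted genes, with Cp at 353 CPM, against 108 CPM in cells without, and Apoe at 2260 CPM, against 646 CPM. Comp had 96.7 CPM in cells with a Lum UMI and 6.38 CPM in those without. Mfap5 went the other way, at 222 CPM in cells with a Lum UMI and 520 CPM in those without. Over the 215 cells and 4232 genes, the genes whose level ranked most like Lum were Tmem176b, a membrane protein (Spearman rho 0.53), Cp (0.51), Apoe (0.49) and Fxyd6 (0.46), and Mylk4, a myosin light chain kinase family member, ranked most opposite (-0.52). For Dcn they were Gas6, a ligand of TAM receptors (0.33), and Ifitm3, an interferon-induced membrane protein (0.31), with Optc, opticin, most opposite (-0.31). Lum and Dcn themselves had a rho of 0.31. These values describe 1 library whose cells share depth, low counts and the choice on the sum of both genes.

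The reporter separated the cells in part. A cell was called eGFP at 8 or more eGFP UMIs with at most 1 of tdTomato, tdTomato at 2 or more tdTomato UMIs with fewer than 8 of eGFP, both where both bounds were met, and neither otherwise. eGFP cells were 9.77% of Lum/Dcn-high cells (6.15 to 14.5%) and 22.7% of Lum/Dcn-zero cells (21.0 to 24.5%). tdTomato cells were 65.6% of Lum/Dcn-high cells (58.8 to 71.9%) and 62.3% of Lum/Dcn-zero cells (60.2 to 64.3%), intervals that overlap. Cells of the neither class were 22.8% of Lum/Dcn-high cells (17.4 to 29.0%) and 14.0% of Lum/Dcn-zero cells (12.6 to 15.6%), and cells with both reporters 1.86% and 0.963%, in the same order. With every cell thinned to 5000 UMIs and the bounds lowered to 3 eGFP and 1 tdTomato UMI, eGFP cells were 8.37% of Lum/Dcn-high cells and 22.7% of Lum/Dcn-zero cells. An eGFP UMI was also counted in 58 of 99 macrophage barcodes, and 7 of them reached 8 UMIs; free transcripts and doublets with muscle were not told apart there. As summed levels, eGFP stood at 463 CPM in Lum/Dcn-high cells and 894 CPM in Lum/Dcn-zero cells, and tdTomato at 271 CPM in Lum/Dcn-high cells and 323 CPM in Lum/Dcn-zero cells.

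Read from the side of the reporter, 21 of 570 eGFP cells were Lum/Dcn-high (3.68%, 2.29 to 5.58%), 141 of 1725 tdTomato cells (8.17%, 6.92 to 9.57%) and 49 of 415 cells of the neither class (11.8%, 8.86 to 15.3%). Lum was counted in 9 of the 21 eGFP, 84 of the 141 tdTomato and 34 of the 49 neither cells. The neither class held the most Lum, 718 CPM, against 268 CPM in tdTomato and 125 CPM in eGFP cells of the Lum/Dcn-high class. Across the classes of 0, 1 to 3, 4 to 9 and 10 or more UMIs, the eGFP share was 22.7%, 15.6%, 13.4% and 5.21%, and the neither share 14.0%, 17.3%, 16.0% and 31.3%. A neither cell is one in which both reporters fell under their bounds, and its descent is unknown. By Xist and 4 Y-linked genes, 89.8% of Lum/Dcn-high and 82.3% of Lum/Dcn-zero cells were called female and 6.05% and 11.8%, in the same order, male, so the library pooled cells of both sexes. Counted in female cells alone, the genes past 2-fold were 90 higher and 16 lower.

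**Figure D4:**
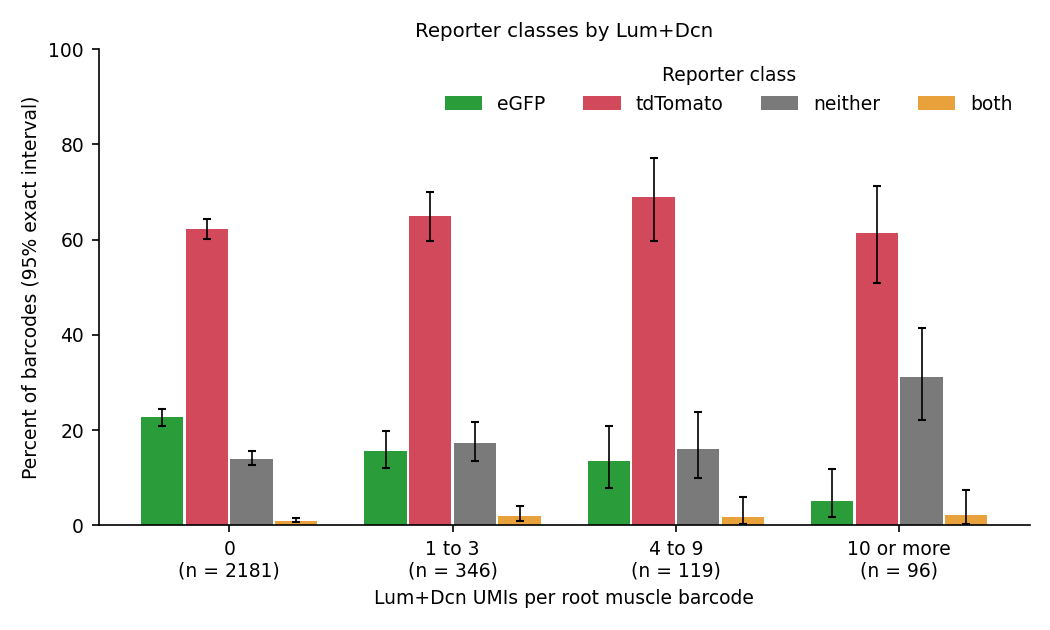
Percent of root muscle cells in each reporter class (y axis, exact 95% intervals) for cells with 0, 1 to 3, 4 to 9 and 10 or more Lum and Dcn UMIs (x axis, number of cells below each). The eGFP bars shrink across the classes, the tdTomato bars stay between 61.5% and 68.9%, and the neither bar is tallest in the last class, at 31.3%.

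In the 21 eGFP Lum/Dcn-high cells some accompanying genes had the same direction as over all root cells and others did not. Apoe had a log2 ratio of 1.76 over eGFP Lum/Dcn-zero cells, Cd34 1.82 and Cp 1.10. Relative to tdTomato Lum/Dcn-high cells, Comp was higher in them, at 147 CPM against 26.4 CPM, a log2 ratio of 2.47 (1.88 to 3.06). This rested on 47 Comp UMIs in eGFP and 55 in tdTomato Lum/Dcn-high cells, and few cells held most of the gene. Serpinf1 was lower, at 12.5 CPM in eGFP and 77.4 CPM in tdTomato Lum/Dcn-high cells, as were Psd (log2 ratio -3.91), Cxcl12 (-2.46) and Tnnt2 (-1.97). For 4 of these genes the direction was the same in Lum/Dcn-zero cells, where Comp had 14.5 CPM in eGFP and 7.71 CPM in tdTomato cells, Cxcl12 36.8 and 72.3 CPM, Psd 5.64 and 59.1 CPM and Tnnt2 289 and 956 CPM. Serpinf1 ran the other way there, at 17.7 CPM in eGFP and 13.3 CPM in tdTomato cells. Fst and Igf1 had no UMI in the eGFP Lum/Dcn-high cells, which allows a level of up to 9.36 CPM, against 110 and 34.6 CPM in the tdTomato ones. Set against eGFP Lum/Dcn-zero cells, 25 of 130 named genes with a value had the opposite sign from that over all root cells, 17 of them lower and 8 higher, and so did 8 of 27 list medians. Acta2 was higher there, at 22018 CPM in Lum/Dcn-high and 20505 CPM in Lum/Dcn-zero cells, a log2 ratio of 0.10 (0.07 to 0.14), and Corin lower, at -1.28, on 6 UMIs in Lum/Dcn-high cells. Among the named genes at least 2-fold higher over all root cells, 8 turned lower. Serpinf1 had a log2 ratio of -0.50 there, on 4 UMIs in Lum/Dcn-high cells, and Cxcl12 one of -0.24, Emp1 -0.65, Gpc3 -0.18, Hand2os1, a noncoding gene beside Hand2, -0.84, Mmp3 -0.97, Mt2 -0.76 and Rspo3, a Wnt enhancer, -0.70, and the median of the chemokine and complement list was -0.031. Fbln1 and Col8a1 kept their direction in eGFP cells, at 3.22 and 1.59. With 21 cells in the group, 211 genes passed 2-fold higher and 186 lower.

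Markers of other cell types were summed in both groups. The summed level of 8 endothelial markers was 21.4 CPM in Lum/Dcn-high cells and 11.9 CPM in Lum/Dcn-zero cells, with Cldn5 at 0 in Lum/Dcn-high cells and Pecam1 the 1 gene that reached 5 CPM. Of 6 mesothelial markers, Msln, Upk3b, Wt1, Lrrn4 and Krt19 had no UMI in Lum/Dcn-high cells, and the sum was C3 alone. Adipocyte and lymphocyte markers had no UMI in Lum/Dcn-high cells. Valve interstitial markers summed to 1151 CPM in Lum/Dcn-high cells and 1133 CPM in Lum/Dcn-zero cells, with Cilp and Kera at 0 in Lum/Dcn-high cells, and 3 of the 4 measured (Prelp, Vcan and Fmod) were higher, with a median log2 ratio of 0.70 and Postn at -0.46. Pericyte markers summed to 401 and 429 CPM, and Schwann and neural markers to 3.46 and 3.37 CPM, in the same order. Cartilage-type markers summed to 93.2 CPM in Lum/Dcn-high cells and 61.7 CPM in Lum/Dcn-zero cells. Fibroblast markers, Lum and Dcn not among them, summed to 2372 CPM in Lum/Dcn-high cells and 1838 CPM in Lum/Dcn-zero cells, and smooth muscle markers to 46050 and 55871 CPM, in the same order. Doublets of muscle with another cell were not called. Cells with both reporters, transcripts of both sexes or the highest total UMIs were left out as possible doublets in a further count. It kept 193 Lum/Dcn-high and 2050 Lum/Dcn-zero cells, and 101 genes were higher and 18 lower.

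Macrophage barcodes gave the level of Lum and Dcn in cells of another type. A Lum or Dcn UMI was counted in 20.5% of all root muscle barcodes, at a median depth of 13472 UMIs, and in 22 of 99 root macrophage barcodes (22.2%), at 8440 UMIs, of which 1 reached 4 UMIs. Shares of cells with any UMI of Lum or Dcn were thus alike in muscle and macrophage barcodes, at unlike depths. In the 71 macrophage barcodes with fewer than 10 Myh11 UMIs the share was 16.9% (9.05 to 27.7%). How far single Lum or Dcn UMIs in muscle cells were free transcripts was not tested. Cells with 1 to 3 UMIs were left out of the contrast. The summed level of both genes was 1141 CPM in Lum/Dcn-high cells, 110 CPM in all root muscle barcodes and 32.3 CPM in macrophage barcodes.

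The bound on Myh11 set aside further root barcodes with at least 4 Lum and Dcn UMIs: 271 had passed the filters on genes and mitochondria, and 216 also had 10 or more Myh11 UMIs. Of the 55 under that bound, 33 had fewer than 5 UMIs of the endothelial genes Pecam1 and Cdh5. Dcn stood at 792 CPM in Lum/Dcn-high cells and 4885 CPM in those 33 barcodes, and Lum at 349 and 1489 CPM, in the same order. Myh11 had 3930 CPM in Lum/Dcn-high cells and 449 CPM in the 33 barcodes, and Acta2 16204 and 5259 CPM. Fbln1 had 90.7 CPM in Lum/Dcn-high cells and 485 CPM in the 33 barcodes, Cp 257 and 752 CPM and Fxyd6 34.6 and 242 CPM. Fibroblast genes were also higher in the 33, with Pdgfra at 12.9 CPM in Lum/Dcn-high cells and 103 CPM in the 33 barcodes. In the same order, Col1a1 had 434 and 983 CPM and Pi16 0.315 and 35.6 CPM. Clec3b had 0.315 and 46.3 CPM and Dpt 0.944 and 10.7 CPM. Tnnt2 and Psd were lower in the 33 barcodes, with 1644 CPM of Tnnt2 in Lum/Dcn-high cells and 652 CPM in the 33, and 167 and 32.1 CPM of Psd. How far transcripts of such barcodes, in doublets or free, contribute to the values of the Lum/Dcn-high cells was not tested.

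By the same rule, such cells were 7.84% of muscle cells in Root and smaller shares elsewhere: 197 of 3841 muscle cells in Asc-RFP (5.13%, 4.45 to 5.87%), 97 of 6220 in Asc-GFP (1.56%, 1.27 to 1.90%) and 54 of 7483 in Arch-GFP (0.722%, 0.543 to 0.941%), each 1 library. Root held cells of both colours, while the other libraries were sorted by colour, so these shares differ in colour as well as segment. Within Root the share was 8.17% of tdTomato cells and 3.68% of eGFP cells. Over all muscle cells, Lum stood at 31.5 CPM in Root, 5.62 CPM in Asc-RFP, 1.64 CPM in Asc-GFP and, in Arch-GFP, 3.01 CPM, and Dcn at 78.2, 47.5, 15.7 and 10.7 CPM in the same order. Within each of those libraries the Lum/Dcn-high cells were set against their own Lum/Dcn-zero cells. Genes past 2-fold numbered 49 of 5819 higher (0.842%) and 8 lower (0.137%) in Asc-RFP. In Asc-GFP they were 35 of 5888 (0.594%) and 16 (0.272%), and in Arch-GFP 205 of 6193 (3.31%) and 91 (1.47%). Of the 85 genes higher in Root, 31 were also at least 2-fold higher in Asc-RFP, which is 36.5% of the Root list and 63.3% of the Asc-RFP list. In Asc-GFP 10 were (11.8% of the Root list and 28.6% of the Asc-GFP list), and in Arch-GFP 32 (37.6% and 15.6%). Not all of the 85 reached 20 CPM in the other libraries: 54 did in Asc-RFP, 37 in Asc-GFP and 58 in Arch-GFP. Of these, 57.4%, 27.0% and 55.2% were at least 2-fold higher in Lum/Dcn-high cells, and 52, 33 and 47 were higher by any amount.

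Across gene lists, with the log2 bound of 0.5 at 5 CPM, the background was 6.54% higher and 3.25% lower in Asc-RFP, 7.35% and 6.68% in Asc-GFP and 14.7% and 14.5% in Arch-GFP. Fibroblast genes were higher in 8 of 14 measured in Root, 9 of 14 measured in Asc-RFP, 6 of 12 in Asc-GFP and 11 of 15 in Arch-GFP, and 0 were lower in any of these libraries. Chemokine and complement genes were higher in 8 of 10 in Root, 7 of 8 in Asc-RFP, 1 of 8 in Asc-GFP and 11 of 11 in Arch-GFP. Of 24 contractile genes, 0 were lower in Asc-RFP, 1 in Asc-GFP and 10 in Arch-GFP. Heart and second heart field genes were higher in 7 of 13 in Asc-RFP, 5 of 14 in Asc-GFP and 3 of 12 in Arch-GFP. Cell cycle genes were higher in 6 of 7 measured in Asc-RFP and 7 of 7 in Arch-GFP. In Root and in Asc-GFP 1 was measured and 0 were higher, so the rule did not select like cells in every library.

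Gene by gene, the ratios varied between libraries. Fxyd6 had 21.9 CPM in Lum/Dcn-high cells of Asc-RFP and 0.891 CPM in Lum/Dcn-zero cells, a log2 ratio of 4.62. In Asc-GFP and Arch-GFP it was under 3 CPM in both classes, with log2 ratios of 2.70 (-0.47 to 4.80) and 4.38 (1.17 to 6.58). Serpinf1 had 108 CPM in Lum/Dcn-high cells of Arch-GFP and 2.10 CPM in its Lum/Dcn-zero cells, a log2 ratio of 5.68, while the ratio was 2.29 in Root, 2.87 in Asc-RFP and 1.71 in Asc-GFP. Cp was higher in Lum/Dcn-high cells of all 4 libraries, with log2 ratios of 2.05 in Root, 2.32 in Asc-RFP, 0.91 in Asc-GFP and 4.04 in Arch-GFP. Apoe was higher in Root (1.91) and Arch-GFP (1.56), nearer 0 in Asc-RFP (0.45) and lower in Asc-GFP (-0.29). Comp was higher in Root (2.72) and Arch-GFP (1.83), and its interval reached 0 in Asc-RFP (-2.92 to 0.37) and in Asc-GFP (-0.76 to 0.56). Acan was lower in Root (-1.73), Asc-RFP (-3.36) and Asc-GFP (-0.71) and higher in Arch-GFP (0.54). Acta2 was lower in Lum/Dcn-high cells of each library, with log2 ratios of -0.28 in Root, -0.27 in Asc-RFP, -0.23 in Asc-GFP and -0.35 in Arch-GFP.

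**Figure D5:**
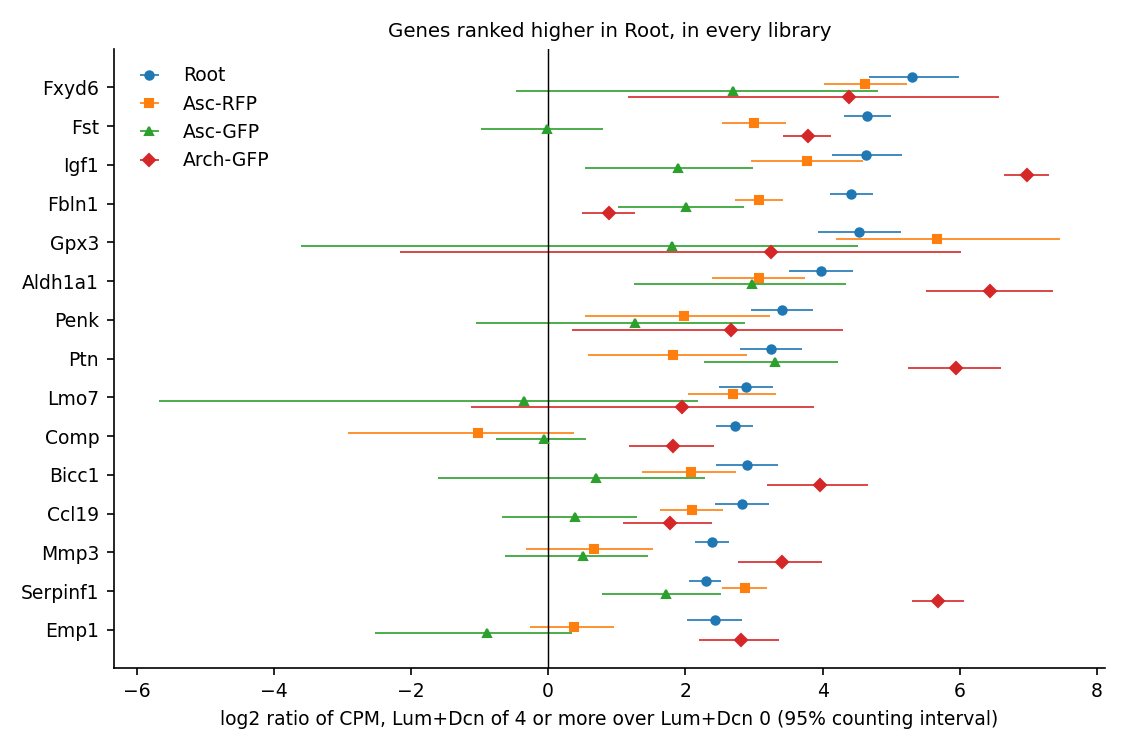
Log2 ratios of Lum/Dcn-high over Lum/Dcn-zero cells (x axis, 95% counting intervals) for the 15 genes ranked highest in Root, in Root, Asc-RFP, Asc-GFP and Arch-GFP. Intervals are widest in Asc-GFP and Arch-GFP, with 97 and 54 Lum/Dcn-high cells, and Serpinf1 and Igf1 reach their largest ratios in Arch-GFP.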

How the data were processed

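The deposited matrices hold UMI counts per gene and barcode, whole numbers made with Cell Ranger 7.0.0 per the file headers. The submitters' processing notes name mm10 and Seurat 4.3. The labels' protocols name a droplet kit of 3′ chemistry, version 3.1. No source used here says whether counting used strand, so the noncoding gene Hand2os1, beside Hand2, is uncertain. The labels give 4040 cells before and 1841 after filtering for Root, and the rule used here kept 2742 muscle barcodes. Members and gene lists were chosen with earlier results of these data known.

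UMIs were summed over each class of cells and divided by the total (3176917 in Lum/Dcn-high and 29693540 in Lum/Dcn-zero cells) to give CPM. Ratios have exact conditional binomial, levels exact Poisson and shares exact Clopper-Pearson intervals at 95%. UMIs of cells are not independent samples, so these cover counting error only. No test was possible with 1 library per group. The 15 genes ranked highest and 15 lowest by the bound nearest 0 were named at 20 CPM or more, without Lum, Dcn, mitochondrial, ribosomal and sex-linked genes, and up to 4 genes from each of 28 lists. Markers of other cell types and some textbook genes (Cd34, Bgn, Col1a1 and the like) were added after their values were seen. Some genes that these rules name go unreported here. Thinning used seed 1. Computation, in Python 3.11.15 with numpy 2.4.6 and scipy 1.17.1, was tested on simulated data. Doublets were not called and free RNA was not removed.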

Additional observations from a re-analysis of the deposited data

Results flagged for a closer look

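Outside the muscle cells, 32 root barcodes with fewer than 10 Myh11 UMIs and at least 5 UMIs of the endothelial genes Pecam1 and Cdh5 held 4279 CPM of Lum and Dcn summed, against 24.9 CPM in the 71 macrophage barcodes with as little Myh11. They stood out because this signal lies in barcodes that the comparisons do not use. A Lum or Dcn UMI was counted in 24 of the 32 (75.0%, 56.6 to 88.5%), and 22 of them reached 4 UMIs, at a median depth of 7153.5 UMIs over the 32. Dcn stood at 792 CPM in the Lum/Dcn-high muscle cells and 5134 CPM in those 22 barcodes, and Lum at 349 and 223 CPM, in the same order. The 22 held 951 CPM of Pecam1, 274 CPM of Fxyd6, 5171 CPM of Apoe and 837 CPM of tdTomato. Fibroblast genes were counted there too, with 278 CPM of Pdgfra, 51.2 CPM of Pi16 and 25.6 CPM of Dpt, but 3.66 CPM of Col1a1. Hapln1, from the valve interstitial list, had 80.4 CPM. The cell type of these barcodes was not tested. Leaving out every muscle barcode with a UMI of Cdh5, Vwf, Kdr, Tie1, Emcn, Ptprc or C1qa gave 88 genes at least 2-fold higher in Lum/Dcn-high cells. Pecam1 was not among the genes used, and 203 Lum/Dcn-high cells remained. The part of barcodes like the 32 in the values of the Lum/Dcn-high cells was not tested.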

How the results depend on the processing

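No paired analysis was possible because each group was 1 library. Across 19 alternatives, 2 of them chosen after seeing the data, 902 of 910 values of the 58 named genes past 2-fold kept their direction. These genes were taken as past 2-fold in the same cells, and most alternatives kept most of those cells. Much of this count was therefore fixed beforehand. The 8 values that turned all came from eGFP cells alone. Over all results compared, 177 values could not be computed, not all of them for these 58 genes. The numbers past 2-fold (85 higher, 13 lower) moved beyond 1.5 times with the threshold, the floor and the reporter class. With cells at 2 or more Lum and Dcn UMIs, 54 genes were higher, at 8 or more 143 were higher and 31 lower, and at 3 or more UMIs per 10000 the count lower was 20. Without a CPM floor the counts were 1699 higher and 3673 lower, and with a floor of 50 CPM they were 44 and 5. In eGFP cells alone they were 211 and 186. The share of Lum/Dcn-high cells (7.84%) was 12.7% at 2 or more UMIs, 4.30% at 8 or more and 3.68% in eGFP cells, and the eGFP share (9.77%) was 5.93% at 8 or more UMIs. In eGFP cells alone 25 of 130 named genes and 8 of 27 list medians had the opposite sign, Acta2 (0.10), Itga8 (0.31), Corin (-1.28) and the medians of the iron and copper (-0.12) and vasoactive (-0.19) lists among them. Of the genes past 2-fold it turned for Cxcl12 (-0.24), Emp1 (-0.65), Gpc3 (-0.18), Hand2os1 (-0.84), Mmp3 (-0.97), Mt2 (-0.76), Rspo3 (-0.70) and Serpinf1 (-0.50), and the chemokine and complement list turned as well (-0.031). The group then held 21 cells. Weighting the contrast to the depth of the Lum/Dcn-high cells gave 85 and 14. The number of cells, 215 against 2181, limits the precision of genes with few UMIs.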
